A study of Mus musculus with 10 samples.

Results

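Iron handling was examined through 10 genes in mouse mammary tumours with and without the intramembrane protease RHBDL4, which is encoded by Rhbdd1. They are 3 genes for secreted iron-binding proteins (Lcn2, Ltf and Trf), both ferritin subunits (Fth1 and Ftl1), the importers Tfrc and Slc11a2, the exporter Slc40a1, and the iron regulatory proteins Aco1 and Ireb2. The genes were taken by symbol from the deposited count table, in which they are 10 of 57010 Ensembl genes. All 10 passed the filter on low counts.

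Iron travels in blood bound to transferrin, enters cells when transferrin binds the transferrin receptor (Tfrc), is moved out of endosomes by Slc11a2, is stored in ferritin and leaves through ferroportin (Slc40a1). When iron is scarce, the iron regulatory proteins bind hairpins called iron-responsive elements, which blocks translation of ferritin and ferroportin mRNA and stabilises Tfrc mRNA. Lipocalin 2 and lactoferrin are antimicrobial proteins that hold iron away from bacteria. Lipocalin 2 is made by neutrophil precursors and by inflamed epithelium, and lactoferrin and transferrin are secreted by mammary epithelium into milk.

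The samples were 10 untreated whole mammary tumours, collected 5 weeks after tumour onset, with 5 libraries of the genotype PyMT with RHBDL4 -/- (knockout) and 5 of PyMT with RHBDL4 +/+ (wild type). Every tumour carried the MMTV-PyMT transgene, in which a mouse mammary tumour virus promoter drives the polyoma middle T oncogene in mammary epithelium, so there is no tumour-free group. The labels used here give neither strain nor age, and do not say whether libraries with the same leading number in their names (the knockout pair 3 and 4, the wild-type pair 1 and 2 and the wild-type pair 3 and 4) came from 1 animal. The p-values therefore measure the spread between these libraries, and each library has a batch label of its own, so no comparison within a batch was possible and any batch and the genotype cannot be told apart.

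Libraries held 25741463 to 43260948 counts. Rhbdd1, the targeted gene, was at 17.0 ± 3.40 CPM (counts scaled to library size; SD, n = 5) in the knockout and 35.2 ± 7.48 CPM (n = 5) in the wild type, with no overlap between the groups (log2 fold change -1.05, edgeR adjusted p = 0.669; -1.14 and 0.113 without wild-type replicate 5). Wild-type replicate 5 stood apart: its luminal epithelial marker list summed to 164 CPM against 5171 to 8520 CPM in the other 9 libraries, and its skeletal muscle list to 148339 CPM against 8.87 to 1675 CPM. Its scaling factor by the trimmed mean of M-values (TMM) was 0.588, against 1.01 to 1.10 elsewhere. Each comparison is given with all 10 libraries and with the 9 that remain without it. In bulk tissue, fewer cells of a type and less RNA per cell cannot be told apart.

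The iron-responsive elements of the genes are shown because they are the hairpins through which iron regulatory proteins act on these mRNAs. They were found in the untranslated regions (UTRs) of GENCODE M21 transcripts (GRCm38) as the letters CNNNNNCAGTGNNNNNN on the mRNA strand, with all 5 stem bases before the loop able to pair with the 5 after it. The loop CAGTGN is in capitals, and each sequence runs 5′ to 3′.
Fth1, 5′ UTR: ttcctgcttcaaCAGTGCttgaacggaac
Ftl1, 5′ UTR: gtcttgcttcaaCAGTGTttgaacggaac
Slc40a1, 5′ UTR: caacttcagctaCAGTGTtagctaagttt
Tfrc, 3′ UTR, element 1: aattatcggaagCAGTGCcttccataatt
Tfrc, 3′ UTR, element 2: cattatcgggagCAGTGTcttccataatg
Tfrc, 3′ UTR, element 3: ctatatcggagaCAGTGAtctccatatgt
Tfrc, 3′ UTR, element 4: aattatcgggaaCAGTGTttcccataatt
The other 6 genes had no match to these letters with full pairing, a strict pattern that misses elements with a bulge or mismatch in the stem, such as the known one in the 3′ UTR of some Slc11a2 transcripts. Among all genes with an annotated UTR, 28 of 20873 (0.134%) had a match in the 5′ UTR and 127 of 20987 (0.605%) in the 3′ UTR. Both ferritins and ferroportin thus carry the element at the end where binding blocks translation. Tfrc has 4 matches at the end where binding protects the mRNA, and the strict pattern may miss further elements there too.

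No iron-handling gene differed between knockout and wild type beyond the spread between libraries. With edgeR's quasi-likelihood test, adjusted over all 18577 genes tested in 10 libraries, 0 of the 10 genes passed an adjusted p of 0.05 (background: 0% of genes tested), and 0 had an unadjusted p under 0.05 (background 7%). In 9 libraries, 0 of 10 passed among 19016 genes tested (background 0.0105%), and 0 had an unadjusted p under 0.05 (background 11.6%). DESeq2 and limma-voom with sample quality weights also passed 0 of 10 in both sets of libraries; at an unadjusted p under 0.05 DESeq2 had 1 gene in 10 libraries (Aco1), and limma-voom had 1 in each set (Ltf, lower in the knockout). The groups overlapped for all 10 genes in both sets, where 1.99% of genes tested in 10 libraries and 5.44% in 9 had groups that did not overlap. Knockout means were fitted higher for 5 genes and lower for 5 in each set, where 43.8% of all genes tested in 10 libraries and 53.2% in 9 were fitted higher. The members had a median log2 fold change of 0.04 in 10 libraries against -0.06 over all genes tested, and -0.00 in 9 libraries against 0.03.

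**Figure D1:**
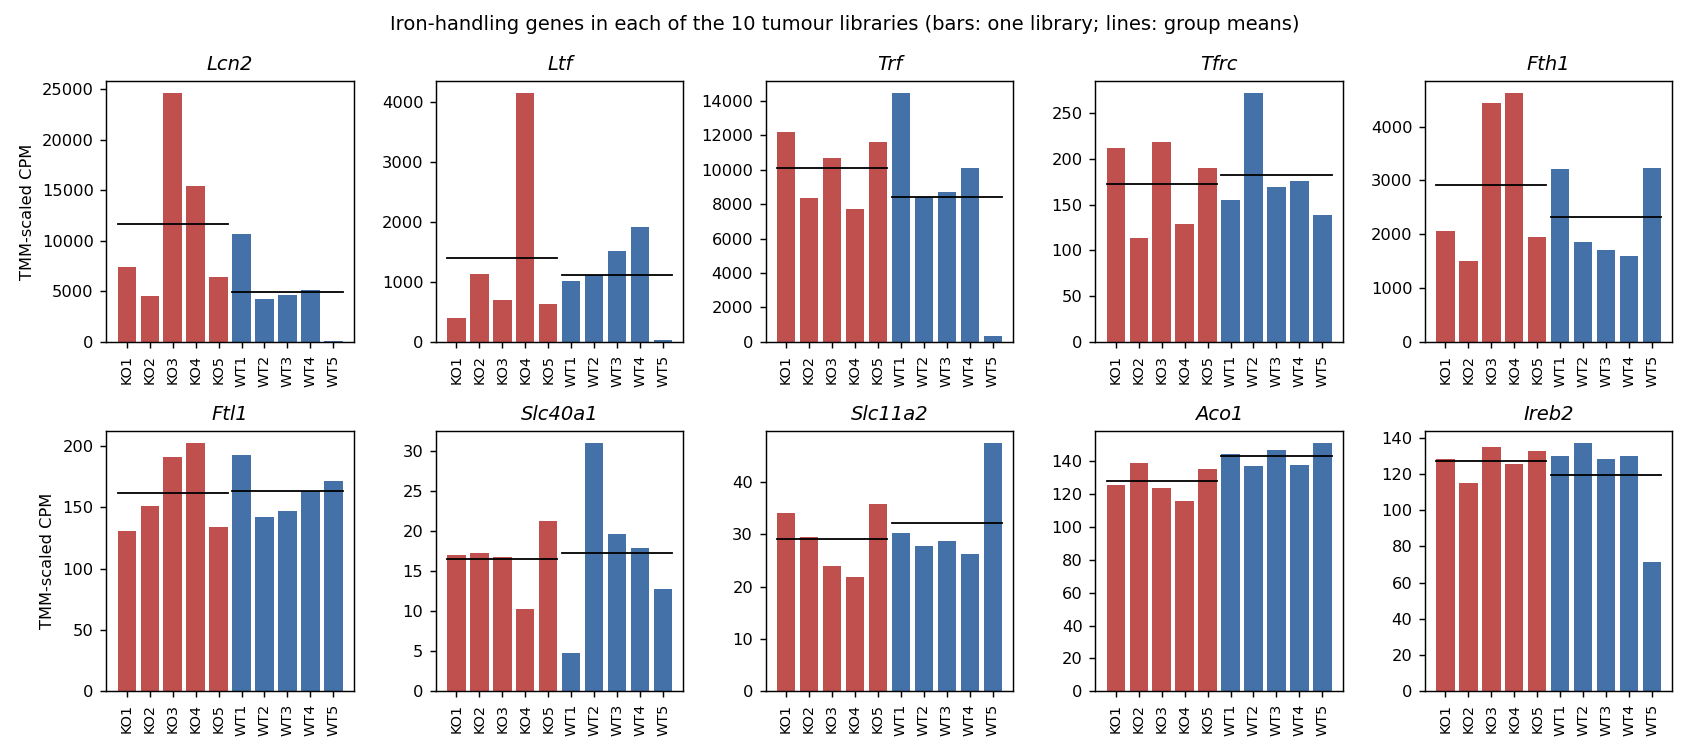
Level of each of the 10 genes in every library (TMM-scaled CPM, all 10 libraries, axes from 0), with 1 bar per library, knockout in red, wild type in blue and a line at each group mean. The groups overlap in every panel, and wild-type replicate 5 lies below all the others for Lcn2, Ltf, Trf and Ireb2.

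Lcn2 encodes lipocalin 2, which captures bacterial siderophores that carry iron. In the knockout, Lcn2 was at 7404, 4557, 24594, 15460 and 6425 CPM in replicates 1 to 5. In the wild type it was at 10667, 4213, 4610, 5128 and 125 CPM. Knockout replicates 3 and 4 and wild-type replicate 1 were the 3 highest libraries, 6 libraries lay between 4213 and 7404 CPM, and wild-type replicate 5 was lowest. The means were 11688 ± 8332 CPM (SD, n = 5) and 4949 ± 3763 CPM (n = 5), a log2 fold change of 1.24 ± 0.849 (SE; 95% interval -0.65 to 3.13; edgeR adjusted p = 0.692; exact permutation p = 0.127, two-sided).

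Without wild-type replicate 5, the Lcn2 means were 12454 ± 8860 CPM (n = 5) and 6478 ± 3164 CPM (n = 4). The log2 fold change was 0.94 ± 0.514 (95% interval -0.21 to 2.10; edgeR adjusted p = 0.511; exact permutation p = 0.246). Lcn2 was the member with the largest fitted difference in both sets, and its interval reached from below 0 to more than a 4-fold difference. Leaving out knockout replicate 3 as well brought the value to 0.48, and leaving out wild-type replicate 1 in its place brought it to 1.34. As a share of all counts Lcn2 took 2.47% in knockout replicate 3, 1.56% in knockout replicate 4 and 0.461% to 1.08% in the other 7 libraries apart from wild-type replicate 5, where it took 0.0073% (95% Wilson interval 0.00698 to 0.00764, counting error only).

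Ltf encodes lactoferrin, a milk and neutrophil granule protein of the transferrin family. In the knockout, Ltf was at 401, 1127, 701, 4135 and 634 CPM in replicates 1 to 5, and in the wild type at 1005, 1120, 1515, 1919 and 28.5 CPM. Knockout replicate 4 was the highest library, at more than its group's other 4 together, and the remaining knockout libraries lay below wild-type replicates 1 to 4, except for knockout replicate 2, which lay above 2 of them. For Ltf the log2 fold change was 0.32 ± 0.900 in 10 libraries (95% interval -1.68 to 2.33; edgeR adjusted p = 0.917) and 0.03 ± 0.633 in 9 (95% interval -1.39 to 1.45; edgeR adjusted p = 0.989). The 9-library value was near 0 and its sign changed under 5 of 8 other settings. Without knockout replicate 4 it was -0.94 (edgeR adjusted p = 0.389), and without wild-type replicate 1 or 2 it was -0.10 or -0.0670.

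Trf encodes transferrin, the carrier of iron in plasma and milk. Trf was at 12220, 8363, 10675, 7701 and 11613 CPM in the knockout and at 14438, 8445, 8699, 10102 and 339 CPM in the wild type, for replicates 1 to 5. The 9 libraries other than wild-type replicate 5 lay within a 2-fold range, which both groups spanned. Knockout minus wild type, the log2 fold change was 0.27 ± 0.667 in 10 libraries (edgeR adjusted p = 0.906) and -0.03 ± 0.197 in 9 (95% interval -0.47 to 0.42; edgeR adjusted p = 0.968), so the direction turned with that library.

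Fth1 encodes the ferritin heavy chain, which oxidises iron for storage. In the knockout, Fth1 was at 2056, 1508, 4443, 4617 and 1950 CPM in replicates 1 to 5. In the wild type it was at 3209, 1852, 1715, 1588 and 3228 CPM. Knockout replicates 3 and 4 were the highest libraries, followed by wild-type replicates 5 and 1. For Fth1 the log2 fold change was 0.33 ± 0.384 in 10 libraries (95% interval -0.52 to 1.18; edgeR adjusted p = 0.797). In 9 libraries the means were 3108 ± 1590 CPM (n = 5) and 2200 ± 783 CPM (n = 4), with a log2 fold change of 0.50 ± 0.378 (95% interval -0.35 to 1.35; edgeR adjusted p = 0.633). That value was 0.30 without knockout replicate 3, 0.27 without knockout replicate 4 and 0.78 without wild-type replicate 1.

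Ftl1 encodes the ferritin light chain, which helps the iron core form. Ftl1 was at 130, 151, 191, 202 and 134 CPM in the knockout and at 193, 142, 147, 164 and 171 CPM in the wild type. Ftl1 spanned less than a 2-fold range, and the groups lay over each other (log2 fold change -0.01 ± 0.164 in 10 libraries, edgeR adjusted p = 0.984; 0.02 ± 0.161 in 9, edgeR adjusted p = 0.968). The 95% interval in 9 libraries ran from -0.34 to 0.38. Ferritin genes have near-identical copies, and the labels do not say how multiply matching reads were counted, so ferritin levels are uncertain. The table held 14 other genes with names that begin with Fth or Ftl, among them the ferritin-like Fthl17 genes, and 8 of the 14 had 0 counts in every library. The Ftl pseudogenes together held 1.59% to 2.96% as many counts as Ftl1. Those named Fth-ps held at most 0.107% as many as Fth1. Copies under other names were not searched for, so these shares do not measure all of the uncertainty.

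Tfrc encodes the transferrin receptor, which takes up iron-loaded transferrin. Tfrc was at 212, 114, 218, 129 and 190 CPM in the knockout and at 155, 272, 169, 176 and 138 CPM in the wild type. The highest library was wild-type replicate 2 and the lowest knockout replicate 2, and both groups spanned nearly a 2-fold range. For Tfrc the log2 fold change was -0.08 ± 0.245 in 10 libraries (edgeR adjusted p = 0.930) and -0.14 ± 0.236 in 9 (95% interval -0.67 to 0.38; edgeR adjusted p = 0.839).

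Slc11a2 encodes the divalent metal transporter DMT1, which moves iron out of endosomes. Slc11a2 was at 34.1, 29.5, 23.9, 21.8 and 35.7 CPM in the knockout and at 30.2, 27.8, 28.8, 26.2 and 47.4 CPM in the wild type. Wild-type replicate 5 was its highest library, and the other 4 wild-type values lay inside the knockout range. The log2 fold change was -0.14 ± 0.210 in 10 libraries (edgeR adjusted p = 0.837) and 0.06 ± 0.156 in 9 (95% interval -0.30 to 0.41; edgeR adjusted p = 0.915), again with a turn of direction.

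Slc40a1 encodes ferroportin, the exporter of cellular iron, which is prominent in macrophages that recycle red cells. Slc40a1 was at 17.0, 17.2, 16.8, 10.3 and 21.3 CPM in the knockout and at 4.76, 31.0, 19.7, 17.9 and 12.7 CPM in the wild type. The highest and lowest libraries were both wild type, and they are the pair that shares a leading number. The log2 fold change was -0.06 ± 0.413 in 10 libraries (edgeR adjusted p = 0.971) and -0.13 ± 0.428 in 9 (95% interval -1.09 to 0.83; edgeR adjusted p = 0.926).

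Aco1 encodes iron regulatory protein 1, which is also the cytosolic aconitase, and Ireb2 encodes iron regulatory protein 2. Aco1 was at 125, 139, 123, 116 and 135 CPM in the knockout and at 144, 137, 146, 137 and 151 CPM in the wild type. Knockout replicate 2 lay above wild-type replicates 2 and 4, and the other 4 knockout libraries lay below every wild-type library. The means were 128 ± 9.28 and 143 ± 5.89 CPM (SD over 5 libraries each). The fitted difference was -0.17 ± 0.102 on the log2 scale (95% interval -0.39 to 0.06; edgeR adjusted p = 0.677).

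With library totals in place of TMM the 10-library value was -0.03, and in 9 libraries with TMM the Aco1 difference was -0.13 ± 0.0813 (95% interval -0.31 to 0.05; edgeR adjusted p = 0.562). The exact permutation p, two-sided and not adjusted, was 0.0238 in 10 libraries and 0.0794 in 9, where the smallest possible value is 0.00794 in both. Ireb2 was at 128, 115, 135, 125 and 132 CPM in the knockout and at 130, 137, 128, 130 and 71.5 CPM in the wild type. Apart from wild-type replicate 5, which was lowest, its libraries were almost level. The log2 fold change was 0.10 ± 0.174 in 10 libraries (edgeR adjusted p = 0.872) and -0.02 ± 0.0751 in 9 (95% interval -0.19 to 0.14; edgeR adjusted p = 0.922).

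**Figure D2:**
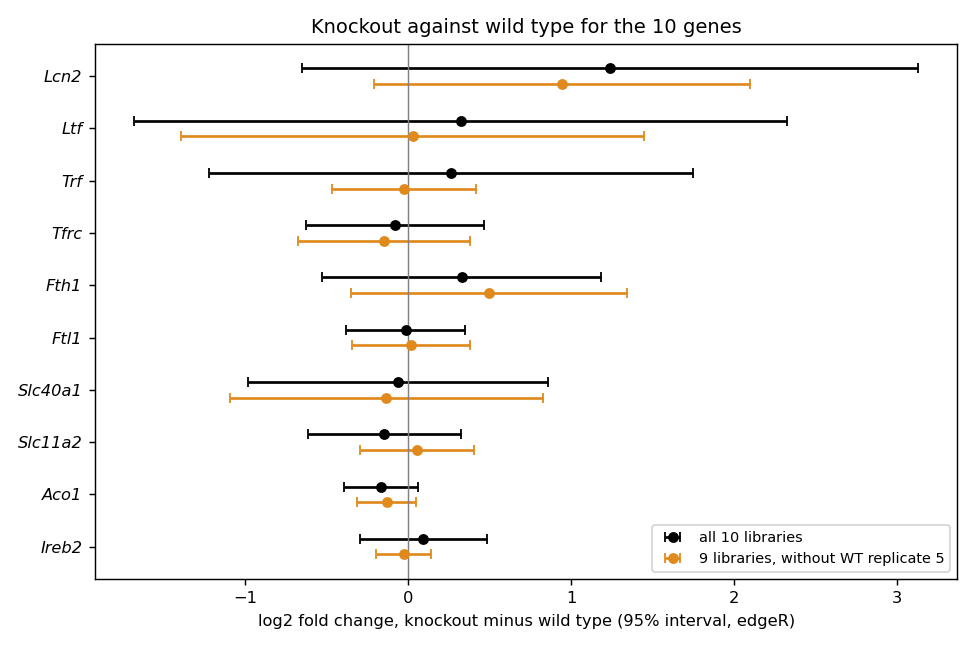
Log2 fold change of each gene, knockout minus wild type, from edgeR, with 95% intervals, in all 10 libraries and in the 9 without wild-type replicate 5. Every interval crosses 0, and the Lcn2, Ltf and Trf intervals are narrower in 9 libraries.

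Wild-type replicate 5 differed from the rest in the secreted proteins far more than in storage or uptake. The median of the other 9 libraries was 51.2 times its level for Lcn2, 39.3 times for Ltf and 29.8 times for Trf, against 1.81 times for Ireb2. Fth1 was at 3228 CPM there, within the range of the other 9, and as a share of all counts it took 0.188% against 0.166% to 0.467%. With TMM scaling 4 of the 10 genes lay below all other libraries, 4 within and 2 (Slc11a2 and Aco1) above. With CPM from library totals alone, 7 lay below, 3 within and 0 above, so the positions of Tfrc, Ftl1, Slc11a2 and Aco1 in this library depended on the scaling, and those of the other 6 genes did not. Epcam, a luminal epithelial marker, had 436 counts in this library and 37133 to 53728 in the other 9. What these markers contribute to the levels of the 3 secreted genes was not tested.

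Levels between genes were compared per kilobase of exon, using 9 libraries and GENCODE M21 exon lengths. Lcn2 was highest, at 10708 ± 7951 CPM per kb (SD over 9 libraries), followed by Trf at 3952 ± 839 and Fth1 at 1736 ± 843 CPM per kb. Ltf was at 529 ± 431 and Ftl1 at 177 ± 30.1 CPM per kb. The places of Fth1 and Ftl1 carry the uncertainty over multiply matching reads given above. Tfrc, at 37.1 ± 9.66, and Aco1, at 37.0 ± 2.70 CPM per kb, did not differ beyond their spread, and Ireb2 was at 23.7 ± 1.06 CPM per kb. Slc40a1, at 5.45 ± 2.24, and Slc11a2, at 5.31 ± 0.827 CPM per kb, closed the order and did not differ beyond their spread either. The storage and secreted proteins thus had mRNA levels well above those of the receptor, the transporters and the regulators.

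The genes differed widely in how much they varied between tumours of the same genotype. The SD of log2 CPM within groups was ranked among 15347 genes with a mean of at least 1 CPM in 9 libraries, whose median was 0.295. Ltf, at 1.02, stood at percentile 92.3, Lcn2, at 0.849, at percentile 88.8, Slc40a1, at 0.810, at percentile 87.8 and Fth1, at 0.633, at percentile 81.8. Tfrc (0.398), Trf (0.318), Ftl1 (0.257) and Slc11a2 (0.240) lay nearer the middle, at percentiles 64.4, 53.8, 42.7 and 39.1. The regulators were among the least variable genes, with Aco1 at 0.0875 and percentile 2.33, and Ireb2 at 0.0688 and percentile 0.691. With all 10 libraries Ireb2 moved to percentile 26 and Trf to percentile 92.3, and Aco1 stayed low at percentile 0.323.

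**Figure D3:**
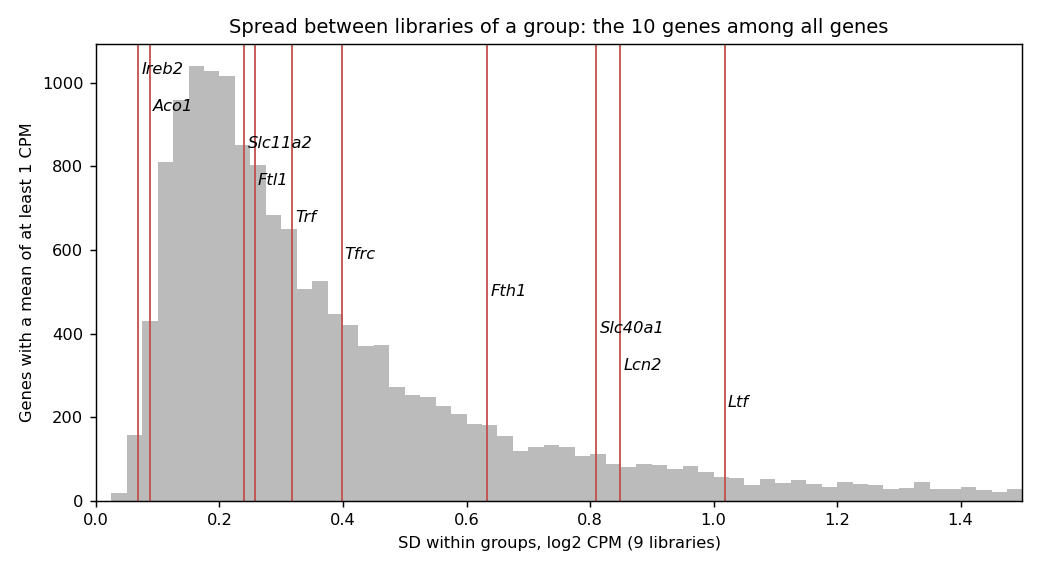
Distribution over genes of the within-group SD of log2 CPM in 9 libraries, for 15347 genes with a mean of at least 1 CPM, with the 10 iron-handling genes marked by vertical lines (476 genes beyond the axis end of 1.5 are not drawn). Aco1 and Ireb2 lie at the low edge, and Lcn2, Ltf, Slc40a1 and Fth1 in the upper tail.

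Lcn2 and Fth1 were highest in the same 3 tumours. In the 9-library scaling, Lcn2 was at 26140 CPM in knockout replicate 3, 16547 in knockout replicate 4 and 11181 in wild-type replicate 1, and at 4404 to 7847 CPM in the other 6. Fth1 was at 4722, 4942 and 3364 CPM in those 3 libraries and at 1614 to 2179 CPM in the other 6. Ftl1 had the same 3 highest libraries, at 203, 217 and 202 CPM against 138 to 173 CPM. Knockout replicates 3 and 4 share a leading number, while wild-type replicate 1 shares its number with wild-type replicate 2, where Lcn2 was at 4404 CPM.

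Across the 9 libraries, Pearson's r of log2 levels was 0.954 for Lcn2 with Fth1 (Spearman's rho 0.867), and 0.897 without the 2 libraries farthest from the median of Lcn2. For Fth1 with Ftl1 it was 0.802 (rho 0.433) and 0.493 without those 2. These and the values below are descriptions: 20 pairs were computed after the values were known, and the 9 libraries carry 6 leading numbers. All 45 pairs of members were computed as well. Of these, Lcn2 with Fth1 had the highest r in 9 libraries, and Tfrc with Ireb2 the next. With all 10 libraries r of Lcn2 with Fth1 was 0.155. Wild-type replicate 5 had the lowest Lcn2 there, while its Fth1, at 3228 CPM with TMM scaling, lay within the range of the other 9. From library totals alone its Fth1 was at 1879 CPM, against a median of 2143 CPM in the other 9.

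The same 3 libraries were also high in other lists of markers. The acute phase and inflammation list, which includes the serum amyloid genes, summed to 2424, 3545 and 3206 CPM in knockout replicates 3 and 4 and wild-type replicate 1, and to 615 to 1224 CPM in the other 6. By genotype it ran from 615 to 3545 CPM in the knockout and 705 to 3206 CPM in the wild type. In both sets 11 of 14 tested genes were fitted higher in the knockout and 0 passed the test (background 43.8% higher in 10 libraries and 53.2% in 9). Lcn2 with this list had r of 0.741 (rho 0.400), and 0.517 without the 2 farthest libraries.

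The neutrophil list summed to 247, 356 and 1344 CPM in the 3 libraries and to 23.3 to 119 CPM elsewhere. It ran from 32.7 to 356 CPM in the knockout and from 23.3 to 1344 CPM in the wild type. In both sets 7 of 9 tested genes were fitted higher in the knockout and 0 passed the test (background 43.8% higher in 10 libraries and 53.2% in 9). Lcn2 with this list had r of 0.670 (rho 0.567), and 0.682 without the 2 farthest libraries. A single gene, S100a8, carried most of the sum. It was at 1301 CPM in wild-type replicate 1, 293 CPM in knockout replicate 4 and 200 CPM in knockout replicate 3. S100a9, of the same list, was at 17.1, 25.7 and 18.6 CPM in those libraries, in that order. In the other 6 it was at 1.16 to 10.3 CPM. Retnlg, another neutrophil gene, was at 0.632 CPM in wild-type replicate 1 and at 7.74 and 3.28 CPM in knockout replicates 4 and 3, against 0.0683 to 0.593 CPM in the other 6. Ly6g, a defining neutrophil surface marker, was at or below 0.290 CPM in all 10 libraries. The precursors of neutrophils make lipocalin 2 and lactoferrin. They also make the products of Camp, Ngp, Mpo, Elane, Prtn3 and Ctsg, though not all at the same stage. These 6 summed to 70.9 CPM in wild-type replicate 1, 3.40 CPM in wild-type replicate 5 and 9.34 to 19.0 CPM in the other 8. Mpo was at or below 0.194 CPM throughout. In the 9-library scaling, wild-type replicate 1 had Camp at 45.2 CPM and Prtn3 at 28.7 CPM. The other 8 had Camp at 0 to 0.709 CPM and Prtn3 at 8.70 to 16.1 CPM. Ngp went the other way, at 0.158 CPM in wild-type replicate 1 and 4.10 and 3.47 CPM in knockout replicates 4 and 3.

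The erythroid list, led by the globins, summed to 661, 424 and 281 CPM in the 3 libraries and to 44.0 to 183 CPM in the other 6. In 10 libraries 1 of its 7 tested genes was fitted higher in the knockout and 6 lower (background 43.8% higher). Wild-type replicate 5 had the highest sum there, 2036 CPM. Without that library 6 of the 7 were fitted higher (background 53.2%), and in both sets 0 passed the test. Across the 9 libraries, Lcn2 with this list had r of 0.682. It fell to 0.0466 without the 2 farthest libraries, so that relation rested on knockout replicates 3 and 4. The luminal list summed to 7030, 9119 and 7167 CPM in the 3 libraries and to 5480 to 6824 CPM in the other 6. What these cell types and inflammation contribute to the Lcn2 and Fth1 levels was not tested.

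**Figure D4:**
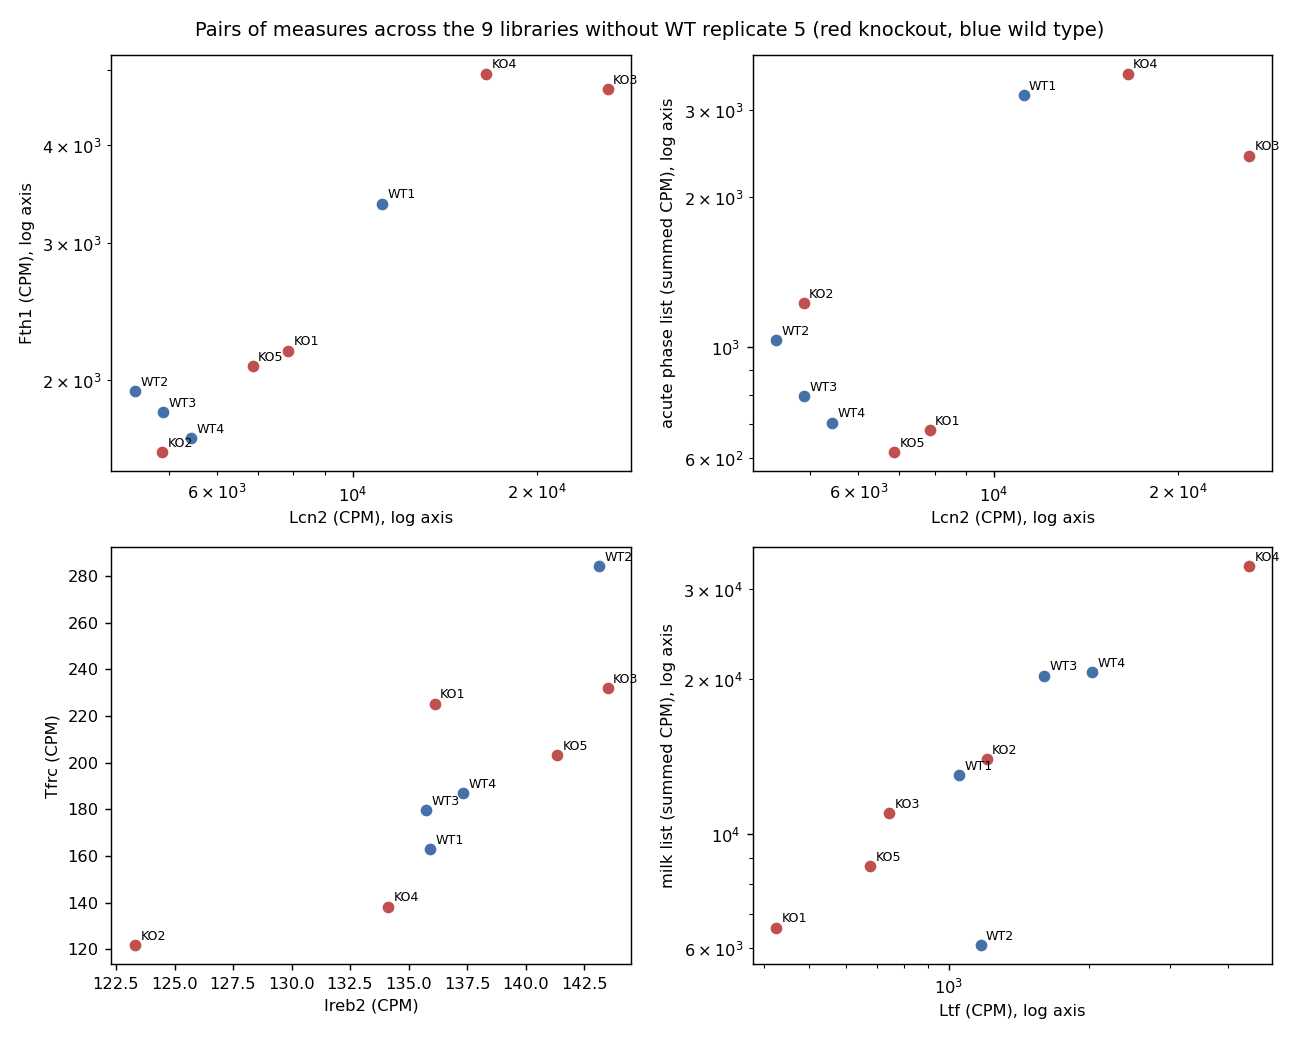
Each point is 1 of the 9 libraries without wild-type replicate 5 (red knockout, blue wild type), for Fth1 and the summed acute phase list against Lcn2, Tfrc against Ireb2, and the summed milk list against Ltf (CPM; log axes except for Tfrc and Ireb2). Knockout replicates 3 and 4 and wild-type replicate 1 lie apart at the upper right of both Lcn2 panels.

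The promoters of Lcn2 and Fth1 are shown because these 2 genes ran together across tumours. Each is the 250 bases before the RefSeq start site (GRCm38.p6), 5′ to 3′ on the gene's strand. The search used the letters TTGCNNAA or TTNNGCAA on either strand, a form of the motif bound by the C/EBP family of acute phase and myeloid transcription factors; matches are in capitals. The Lcn2 window is chr2:32387740-32387989 on the minus strand and the Fth1 window, the second of 2 listed starts, is chr19:9982396-9982645 on the plus strand.
Lcn2: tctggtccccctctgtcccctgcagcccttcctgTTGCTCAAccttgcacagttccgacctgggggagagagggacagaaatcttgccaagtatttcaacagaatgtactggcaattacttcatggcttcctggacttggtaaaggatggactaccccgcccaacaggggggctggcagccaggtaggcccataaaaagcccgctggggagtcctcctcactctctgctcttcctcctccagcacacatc
Fth1: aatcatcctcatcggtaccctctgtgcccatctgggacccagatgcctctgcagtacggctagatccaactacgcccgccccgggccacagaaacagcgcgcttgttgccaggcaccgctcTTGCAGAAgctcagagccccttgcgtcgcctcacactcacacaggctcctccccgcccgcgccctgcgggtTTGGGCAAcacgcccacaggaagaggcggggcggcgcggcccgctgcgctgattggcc
The Lcn2 match begins 216 bases before the start, and the Fth1 matches 129 and 58 bases before. The window of the other listed Fth1 start held no match. Of the 10 genes, 7 were in the promoter table with 9 windows, and 3 windows held a match, the third being that of Ltf with 1 match 75 bases before its start. Of all 32851 promoters in the table, 3142 (9.56%) held one in the same length. A match is a run of letters and says nothing of binding in these tumours.

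Ltf ran with milk protein genes across the 9 libraries without wild-type replicate 5. There r was 0.0342 for Ltf with Lcn2, against 0.805 (rho 0.127) in all 10 libraries, and it was 0.860 for Ltf with the summed milk list (rho 0.833), and 0.663 without the 2 farthest libraries. The milk list, which holds the caseins, summed to 33202 CPM in knockout replicate 4, where Ltf was highest, and to 6575 CPM in knockout replicate 1, where Ltf was lowest. Its lowest sum was 6082 CPM, in wild-type replicate 2, where Ltf was at mid range. In 10 libraries all 10 of its genes were fitted higher in the knockout (background 43.8%). In 9 libraries 7 of the 10 were (background 53.2%), and 0 passed the test in either set. For Ltf with the neutrophil list r was 0.171, and for Trf with the milk list -0.406. Ltf and Trf had r of -0.654 (rho -0.733), and -0.418 without the 2 farthest libraries, and 0.804 (rho -0.273) in all 10 libraries, so the sign of r turned with wild-type replicate 5.

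Tfrc and Ireb2 also ran together, with r of 0.856 (rho 0.917) and 0.717 without the 2 farthest libraries, and 0.486 (rho 0.842) in all 10 libraries. In the 9 libraries Ireb2 spanned 123 to 144 CPM and Tfrc spanned 122 to 284 CPM. Iron regulatory protein 2 is controlled mainly through the stability of the protein, which these data do not measure. Tfrc, which is known to be high in dividing cells, had r of 0.360 with the proliferation list (rho 0.200). The 12 tested genes of that list were all fitted lower in the knockout in both sets. Of all genes tested, 43.8% in 10 libraries and 53.2% in 9 were fitted higher. Past the test were 0 of the 12 in 10 libraries (background 0%) and 1 in 9 (background 0.0105%).

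Slc40a1 had r of 0.696 with the fibroblast list (rho 0.483) and 0.816 without the 2 farthest libraries, and -0.200 with the macrophage list. In wild-type replicate 1, where Slc40a1 was lowest, the fibroblast list summed to 175 CPM, against 1514 to 7429 CPM in the other 8. The next lowest fibroblast sum, 1514 CPM, was in wild-type replicate 2, where Slc40a1 was highest at 32.4 CPM. These are the 2 farthest libraries. With the endothelial list r of Slc40a1 was 0.498 (rho -0.0333), and -0.312 without the same 2 libraries. What fibroblasts contribute to the Slc40a1 level was not tested.

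The 4 genes most like each of 5 members were named by Pearson's r of log2 CPM over 9 libraries among 13099 genes. For Lcn2 they were Scamp1 (r = 0.980), Sec63 (0.978), Polr2f (0.977) and Tatdn2 (0.975), and over 10 libraries Sec63 was at 0.991 and Tatdn2 at 0.637. For Ltf they were Anxa1 (0.964), Parp16 (0.959), L1cam (0.948) and Slc25a48 (0.947), with 0.459, 0.0254, 0.618 and 0.00605 over 10 libraries. For Trf they were Sc5d (0.947), Crot (0.940), B3glct (0.922) and Rims3 (0.921), of which Sc5d was at -0.377 and Rims3 at 0.997 over 10 libraries. For Tfrc they were Lemd3 (0.941), Zfp184 (0.938), Rcc2 (0.924) and Tarbp2 (0.922), and for Slc40a1 they were Lrig3 (0.986), Ptpn14 (0.976), Dzip1 (0.967) and Vcan (0.966), the core protein of the matrix proteoglycan versican. Values this high are the top of a search over many genes and few libraries.

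Beyond the 10 genes, 68 of 72 other listed iron genes were tested, and 0 passed in either set with edgeR, DESeq2 or limma-voom with sample quality weights. In 10 libraries 21 were fitted higher and 47 lower in the knockout, where 43.8% of all genes tested were fitted higher. The median log2 fold change was -0.23 against -0.06 over all genes. By edgeR 10 had an unadjusted p under 0.05 (background 7%), and 1 had groups that did not overlap (background 1.99%). Without wild-type replicate 5 the split was 41 higher and 27 lower (background 53.2% higher), with a median of 0.04 against 0.03. There 9 had an unadjusted edgeR p under 0.05 (background 11.6%), and 4 had no overlap (background 5.44%). The balance of the list thus turned with wild-type replicate 5. With library totals alone the 10-library split was 32 higher and 36 lower. Hepcidin (Hamp), the hormone that removes ferroportin from the cell surface, had too few counts to be tested.

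In the uptake, storage and export group, 10 of 16 tested genes were fitted higher in 9 libraries. Pcbp1, a chaperone that delivers iron to ferritin, was at 409, 394, 302, 320 and 323 CPM in the knockout and at 459, 449, 459 and 445 CPM in the wild type. All knockout libraries lay below all wild-type libraries (log2 fold change -0.37 ± 0.108, edgeR adjusted p = 0.298), and in 10 libraries the groups overlapped (-0.27). Slc39a14, a transporter for iron not bound to transferrin, was at 182 ± 82.5 CPM (n = 5) against 113 ± 21.1 CPM (n = 4; log2 fold change 0.69, edgeR adjusted p = 0.421). Its highest values, 311 and 218 CPM, were again in knockout replicates 3 and 4, but wild-type replicate 1 had its lowest, 93.6 CPM. Steap3, an endosomal ferrireductase, was at 46.9 against 60.3 CPM (log2 fold change -0.36, edgeR adjusted p = 0.449).

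Among 22 haem genes, 13 were fitted higher and 9 lower. Slc48a1, which carries haem out of lysosomes, was at 76.8, 66.1, 94.5, 86.4 and 69.3 CPM in the knockout and at 64.3, 46.6, 63.7 and 47.0 CPM in the wild type. The groups did not overlap (log2 fold change 0.50 ± 0.151, edgeR adjusted p = 0.315), and they did with wild-type replicate 5 included (0.25 ± 0.229). Nfe2l2, the antioxidant regulator NRF2, was at 85.7 against 119 CPM (-0.48, edgeR adjusted p = 0.433), and Cpox, an enzyme of haem synthesis, at 52.7 against 65.7 CPM (-0.32, edgeR adjusted p = 0.436).

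Of 9 tested regulators, 6 were fitted higher and 3 lower in 9 libraries. Smad6, an inhibitor of bone morphogenetic protein signalling, was at 7.93 ± 0.748 against 11.7 ± 2.91 CPM (-0.56, edgeR adjusted p = 0.341). Bmp2 was at 1.58 against 4.21 CPM (-1.42, edgeR adjusted p = 0.426). Bmp6, the ligand that drives hepcidin in liver, was at 1.42 against 0.935 CPM (0.61, edgeR adjusted p = 0.427), and at -2.28 with wild-type replicate 5 included, so its direction rested on that library.

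Of 18 mitochondrial iron genes, 10 were fitted higher and 8 lower. Abcb10, a transporter of the inner mitochondrial membrane, was at 22.3 against 27.3 CPM (-0.29, edgeR adjusted p = 0.446) and Cisd2 at 65.5 against 55.8 CPM (0.23, edgeR adjusted p = 0.442). Slc22a17, a cell surface receptor for lipocalin 2, was at 42.8 ± 7.99 against 37.4 ± 3.76 CPM (0.20, edgeR adjusted p = 0.641). The other genes without overlap in 9 libraries were named after their values were seen: Fdx2 (listed as Fdx1l) at 1.17 against 0.667 CPM, and Bdh2, an enzyme proposed to make a mammalian siderophore, at 1.14 against 0.624 CPM. Fdx1l was also the 1 gene without overlap in 10 libraries (log2 fold change 0.83, edgeR adjusted p = 0.669).

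**Figure D5:**
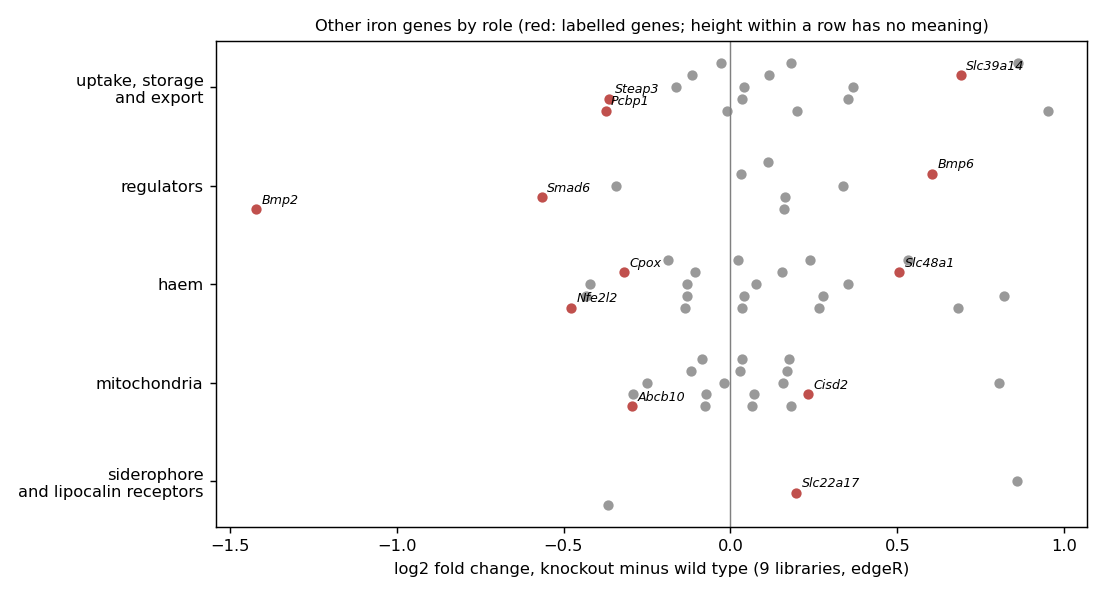
Log2 fold change, knockout minus wild type, of the 68 other tested iron genes in the 9 libraries without wild-type replicate 5 (x axis, edgeR), in a row for each role, with 1 point per gene and named genes labelled in red. Points lie on both sides of 0 in every row, Bmp2 lies farthest to the left at -1.42, and 0 of the genes passed the test.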

How the data were processed

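Poly(A) RNA from whole tumours was sequenced as stranded Illumina libraries, per the labels' protocols. The authors deposited whole-number counts per Ensembl gene for each of 10 libraries; per the submitters' processing notes, the tools were STAR, featureCounts, FastQC and DESeq2 and the build GRCm39. Their versions, the annotation, the strand setting and how multiply matching reads were counted are not given in the sources used. There were 0 unmapped columns of counts.

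From the deposited counts, genes were filtered with filterByExpr, scaled with TMM and tested with edgeR 4.0.16 (R 4.3.3) by the quasi-likelihood test, with Benjamini-Hochberg adjustment over all genes tested and a threshold of 0.05, in 10 libraries and again without wild-type replicate 5. Log2 CPM used a prior count of 2, and the exact permutation test used log2(CPM + 1). CPM values are scaled separately in the 2 sets. Alternatives used DESeq2 1.42.0, limma-voom (limma 3.58.1), other scalings and filters, and left out each library in turn.

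The members, the other gene lists and the alternatives were chosen with earlier results of these data known. Named were all 10 members, Rhbdd1, up to 3 genes of each iron list with the smallest p in 9 libraries and a mean of at least 1 CPM, and the 4 genes most like Lcn2, Ltf, Trf, Tfrc and Slc40a1. 1 gene that the rule names is not reported here. On simulated counts, the 10-library test over 18577 genes recovered 2% of 2-fold and 48% of 4-fold changes, and the 9-library test over 19016 genes recovered 26% and 66%.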

Additional observations from a re-analysis of the deposited data

Results flagged for a closer look

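The highest and lowest values of a gene were compared with their nearest neighbour by Dixon's gap ratio at 95%. The groups were the knockout in 10 libraries and the wild type with and without replicate 5. This marked 6 of 30 groups of libraries, and chance marks about 1 in 20. The wild-type groups with and without replicate 5 share libraries, so the 30 are not independent. Values are TMM-scaled CPM.

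Ltf was at 4135 CPM in knockout replicate 4, and the next knockout library was at 1127 CPM. Tfrc was at 272 CPM in wild-type replicate 2, and the next wild-type library was at 176 CPM. In wild-type replicate 5, the library with low luminal and high skeletal muscle markers, Slc11a2 was at 47.4 CPM, above the next wild-type library at 30.2 CPM, and Ireb2 was at 71.5 CPM, below the next at 128 CPM. Without that library, wild-type replicate 1 stood alone in its group with Lcn2 at 11181 CPM, where the next was at 5436 CPM, and with Fth1 at 3364 CPM, where the next was at 1936 CPM.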

How the results depend on the processing

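In every alternative 0 of the 10 members passed the test. The fitted knockout difference (log2) of Lcn2 stayed above 0 (0.70 to 2.38 in 10 libraries, 0.48 to 1.34 in 9), and that of Aco1 stayed below 0. That of Fth1 also stayed above 0 (0.00265 to 0.50 in 10 libraries, 0.27 to 0.78 in 9). In 10 libraries it was near 0 with sums per leading number (0.0412) and with the random block (0.00265). The lowest adjusted p of Lcn2 in any alternative was 0.328, with limma-voom and sample quality weights in 9 libraries. Over all genes, edgeR called 0 in 10 libraries, DESeq2 54, limma-voom with sample quality weights 17, and leaving out 1 library 0 to 2, the 2 being without wild-type replicate 5. In 9 libraries edgeR called 2, library totals alone 1, DESeq2 463, limma-voom with sample quality weights 142, counts summed per leading number 0, the leading number as a random block 0, and leaving out 1 library 0 to 1. The cause of these differences was not tested. Rhbdd1 passed only with DESeq2 and limma-voom with sample quality weights, in both sets.

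The members with fitted values near 0 changed direction between settings, none past the threshold, and the cause was not tested. In 10 libraries, library totals alone gave Tfrc 0.00843, Ftl1 0.116, Slc40a1 0.0207 and Slc11a2 0.0624. Sample quality weights gave Ltf -1.08, Slc11a2 0.178 and Ireb2 -0.0207, no filter gave Ftl1 0.00813, sums per leading number gave Slc40a1 0.0211, and the random block gave Slc40a1 0.0613. In 9 libraries, library totals gave Ltf -0.0307 and Ftl1 -0.00728, quality weights gave Ltf -1.14, Trf 0.169 and Ftl1 -0.0842, and no filter gave Ltf -0.000898 and Ftl1 -0.00217. Sums per leading number gave Ltf -0.211, Trf 0.0307 and Ftl1 -0.0425, and the random block gave Ltf -0.562, Trf 0.000957, Ftl1 -0.0284 and Slc40a1 0.0546.

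Leaving out 1 library at a time from 10 gave Ltf -0.64 to 0.61, Trf -0.026 to 0.55, Tfrc -0.17 to 0.11, Ftl1 -0.11 to 0.0557, Slc40a1 -0.30 to 0.26, Slc11a2 -0.23 to 0.0552 and Ireb2 -0.0248 to 0.15. From 9 it gave Ltf -0.94 to 0.27, Trf -0.12 to 0.17, Tfrc -0.24 to 0.0588, Ftl1 -0.0724 to 0.11, Slc40a1 -0.45 to 0.23, Slc11a2 -0.0318 to 0.14 and Ireb2 -0.0451 to 0.00551. Bmp2 in 9 libraries ran from -1.69 to -0.15. No paired analysis was made, because no leading number occurs in both of the 2 genotypes. The replicate numbers used here were not taken to mark pairs. On simulated counts few 2-fold changes were recovered at this number of libraries, so differences of that size in a member may go uncalled.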
